A study of Mus musculus with 12 samples.

Results

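White pulp homing chemokines and stromal signals were read as 10 genes of 18221 in the spleen RNA tables: the chemokines Ccl21a, Ccl19, Cxcl13 and Cxcl12, the receptors Ccr7, Cxcr5 and Cxcr4, the lymphotoxin pair Ltb and Ltbr, and Ngfr. They were taken by gene symbol, as a list drawn up with earlier results of these data known, and the RPKM of all transcripts of a gene were summed by its Entrez identifier. The files name no unit, and their values were taken as RPKM after the study's methods. RPKM are read numbers divided by transcript length and by the mapped reads of the library, a scale on which levels can be compared between genes because it is divided by length. Spleens came from 12 male outbred ICR mice, 3 in each of 4 groups. Con-sa mice received saline without busulfan, B-sa mice received 1 injection of busulfan at 40 mg/kg and then saline, and B+Con-FMT and B+A10-FMT mice received the same busulfan and then a fecal microbiota transplant (FMT). Busulfan is an alkylating drug that is toxic to dividing blood-forming cells. The transplant was gut content pooled from 30 donor mice, which had been gavaged with water for Con-FMT and with alginate oligosaccharide (AOS) at 10 mg/kg for A10-FMT. Dosing began at 3 weeks of age and lasted 2 weeks, and spleens were taken at 8 weeks of age. No group received a transplant without busulfan, and each transplant was 1 pooled material. The labels mark separate samples and do not tie them to litters or cages.

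The white pulp of the spleen is laid out by chemokines that stromal cells make. In T cell zones, fibroblastic reticular cells release CCL19 and CCL21, which draw T cells and dendritic cells through CCR7. In follicles, follicular dendritic cells and their neighbours release CXCL13, which draws B cells through CXCR5. CXCL12, made by stromal and perivascular cells and bound by CXCR4, holds blood-forming progenitors, neutrophils and plasma cells in place. Lymphocytes keep this stroma mature by showing membrane lymphotoxin, built from the products of Lta and Ltb, to the lymphotoxin beta receptor (Ltbr) on stromal cells, which signals through the noncanonical NF-kB route to the chemokine genes. Ngfr, the low-affinity nerve growth factor receptor, marks follicular dendritic cells and some nerve-associated cells.

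All 10 genes had an RPKM of at least 1 in all 12 mice, so all of them were among the 12671 genes tested. Ccl21a was the most abundant, at a mean of 660.4 RPKM over the 12 mice, above 99.1% of the tested genes. Cxcl12 (267.6), Ltb (233.6), Cxcl13 (197.1) and Ccl19 (111.7) followed, then the receptors Cxcr4 (73.8), Cxcr5 (72.4) and Ccr7 (49.6). Ltbr at 11.1 and Ngfr at 2.11 RPKM were far lower, with 46.3% and 11.5% of the tested genes below them. Chemokines and the lymphocyte ligand were thus more abundant than any of the receptors in whole-spleen RNA. Between mice of a group, Cxcr5, Cxcr4 and Ltb were the tightest, with coefficients of variation up to 6.9%, 8.8% and 5.7%. Ccl19, Ngfr and Ccl21a were the loosest, reaching 40.5%, 36.0% and 32.2%, in each case in the B-sa group.

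**Figure D1:**
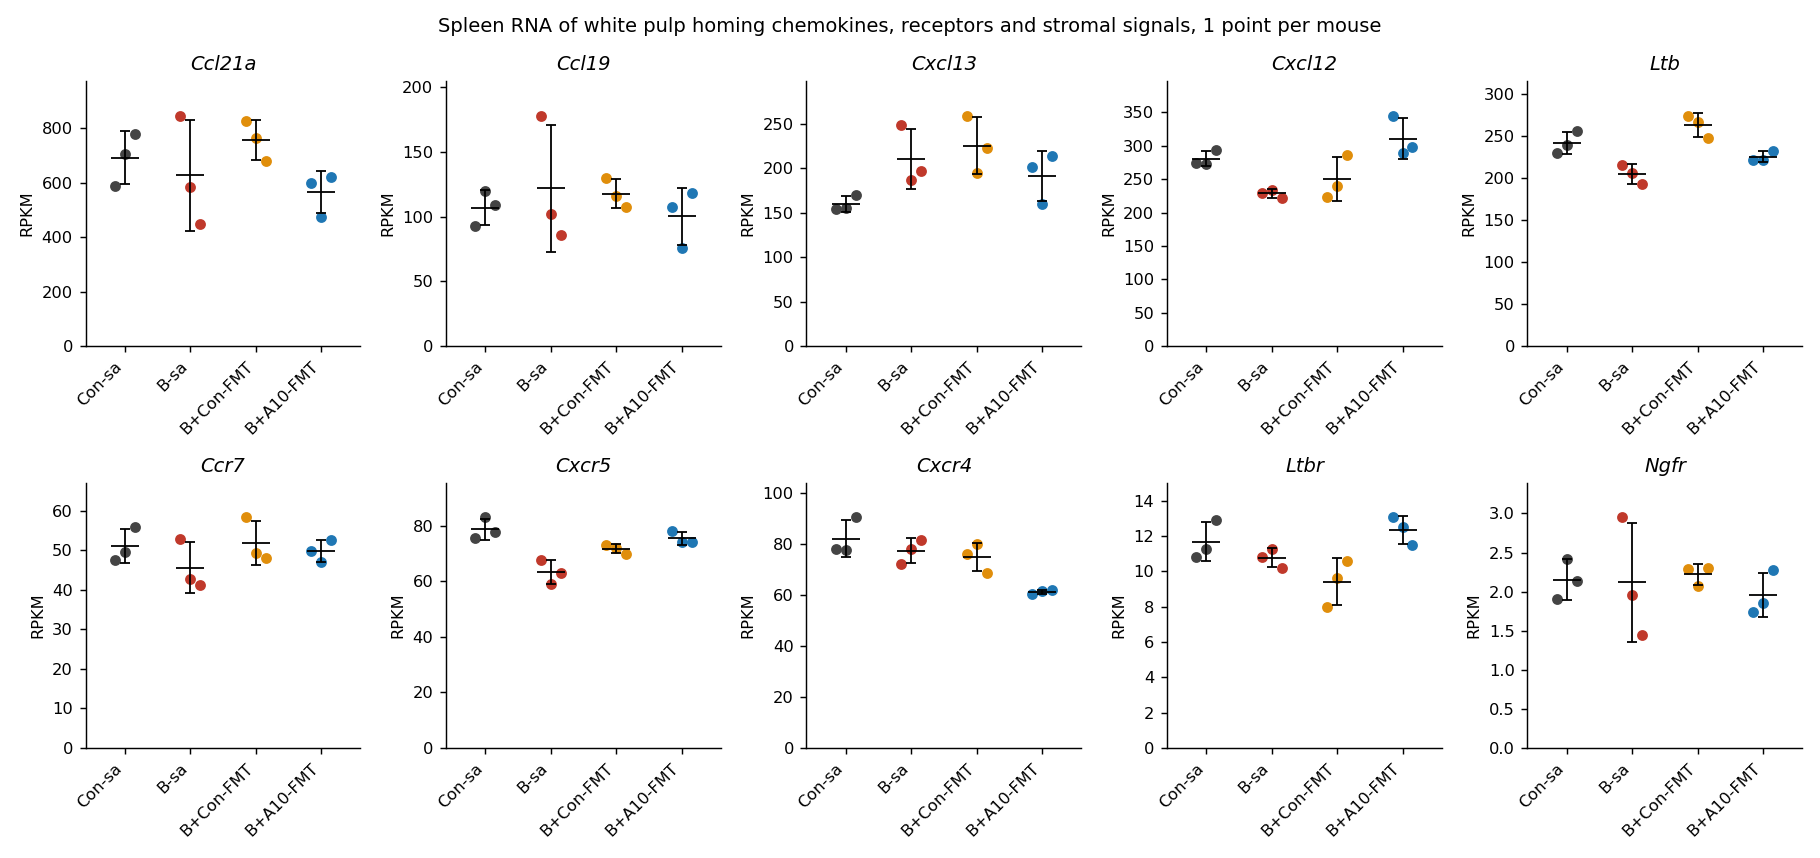
RPKM of the 10 genes (y axis, from 0, a separate scale for each gene) by group (x axis), with 1 point per mouse, the group mean as a horizontal line and the SD as the error bar (n = 3). The 3 B+A10-FMT mice lay below all other mice for Cxcr4, and the 3 B-sa mice lay below all other mice for Cxcr5 and Ltb.

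Spleen identity was checked with marker lists. Every one of the 13 T cell, 12 B cell, 10 endothelial and 10 macrophage markers was above 0. Pancreatic acinar markers, which do not belong to the spleen, summed to 9008 to 14584 RPKM in the 3 B+Con-FMT mice and to 500.0 to 10639 RPKM in the other mice. Their part in the comparisons with B+Con-FMT was not tested. Low RPKM values rise in steps of 1 read, and these steps put the depth of each mouse at 15000000 to 15700000 reads, of which globin genes took a large part (23.3 to 32.4% of the summed RPKM).

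Groups were compared with limma on log2(RPKM + 1), in 1 fit over the 12 mice, and a gene was called at a Benjamini-Hochberg adjusted p under 0.05 over all genes tested. Differences below are on that log2 scale with their standard error (SE), and ratios are of the mean RPKM. Of the 10 genes, 6 were called in at least 1 of 6 comparisons, and Ccl21a, Ccl19, Ccr7 and Ngfr in none. In B-sa against Con-sa, 3 were called, Cxcl12, Cxcr5 and Ltb, all lower, where 14.5% of all tested genes were called (9.78% lower and 4.73% higher). In B+A10-FMT against B-sa, 3 were called, with Cxcl12 and Cxcr5 higher and Cxcr4 lower, against 5.27% of all genes (4.0% higher and 1.27% lower). In B+A10-FMT against B+Con-FMT, 4 were called, with Cxcl12 and Ltbr higher and Cxcr4 and Ltb lower, against 10.4% (7.58% higher and 2.78% lower). In B+Con-FMT against B-sa, Ltb alone was called, higher, against 0.844% of all genes (0.623% higher and 0.221% lower). Cxcr4 was lower in B+A10-FMT than among Con-sa mice, the only call there, against 0.41% of all genes (0.292% lower and 0.118% higher). Cxcl13 was higher in B+Con-FMT than among Con-sa mice, again the only call, against 8.87% (2.3% higher and 6.57% lower). A test for any difference between the 4 groups called Cxcl12, Cxcr5, Cxcr4 and Ltb, 4 of 10, against 17.1% of all genes. These comparisons share mice: B-sa enters 3 of them and so does B+A10-FMT, so they are not independent of each other.

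**Figure D2:**
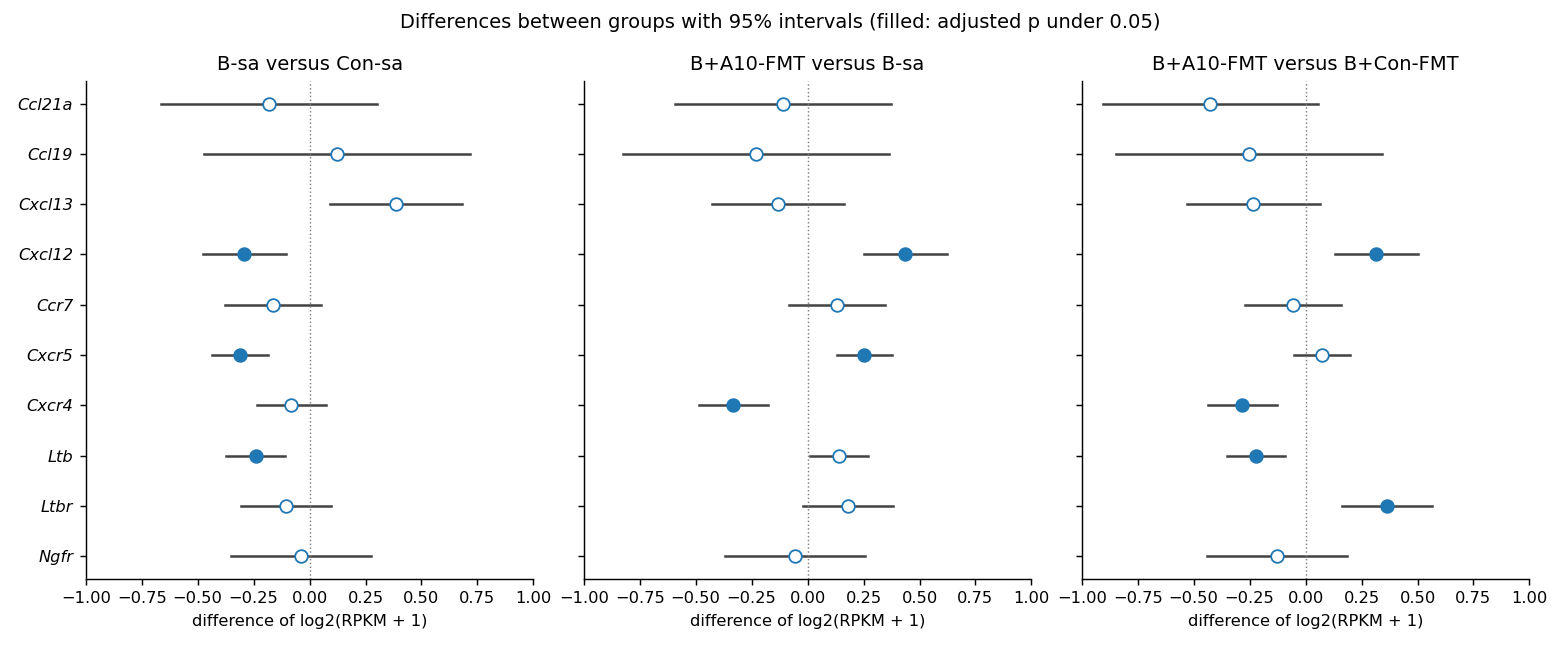
Difference of log2(RPKM + 1) for each gene (x axis) in 3 comparisons, with the 95% interval from limma as a line, and filled points for an adjusted p under 0.05. Cxcl12 and Cxcr5 lay below 0 in B-sa against Con-sa and above 0 in B+A10-FMT against B-sa, and the intervals of Ccl21a, Ccl19, Ccr7 and Ngfr crossed 0 in all 3 panels.

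The median difference of the 10 genes was -0.13 in B-sa against Con-sa, where that of all tested genes was -0.04. It was 0.04 against 0.05 for all genes in B+A10-FMT against B-sa, and -0.17 against 0.05 in B+A10-FMT against B+Con-FMT. In B+Con-FMT against B-sa it was 0.11 beside -0.004. The medians against Con-sa were -0.08 beside 0.005 for B+A10-FMT and 0.03 beside -0.04 for B+Con-FMT. In B-sa against Con-sa, 4 of the 10 had groups that did not overlap, where 34.0% of all tested genes did so. It was 6 of 10 beside 35.0% in B+A10-FMT against B+Con-FMT. Against B-sa it was 5 of 10 beside 27.0%. It was 2 of 10 beside 19.4% in B+Con-FMT against B-sa, 1 of 10 beside 21.6% in B+A10-FMT against Con-sa and 3 of 10 beside 34.1% in B+Con-FMT against Con-sa. In both comparisons of B+A10-FMT with a busulfan group the calls ran in both directions.

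Among the chemokines, Cxcl12 (Entrez gene 20315, chr6:117168535-117181368 in GRCm38.p6) was lower after busulfan and was highest after A10-FMT. It measured 274.3, 273.5 and 293.5 RPKM in the Con-sa mice and 229.8, 234.5 and 222.1 in the B-sa mice. It measured 223.5, 240.6 and 286.4 RPKM in B+Con-FMT and 345.2, 288.9 and 298.6 in B+A10-FMT. Every B-sa mouse was below every Con-sa mouse, every B+A10-FMT mouse was above every mouse of B-sa and B+Con-FMT, and the B+Con-FMT mice spanned from the B-sa to the Con-sa range. The group means were 280.4 ± 11.3 (SD, n = 3), 228.8 ± 6.3, 250.2 ± 32.5 and 310.9 ± 30.1 RPKM in the same order. The difference was -0.29 ± 0.09 (SE; ratio 0.816; limma adjusted p = 0.0395) in B-sa against Con-sa. It was 0.44 ± 0.09 (ratio 1.359; limma adjusted p = 0.0169) in B+A10-FMT against B-sa and 0.32 ± 0.09 (ratio 1.243; limma adjusted p = 0.0371) against B+Con-FMT. The levels of Con-sa and B+A10-FMT, neighbours in their order, overlapped (0.14 ± 0.09; limma adjusted p = 0.47), as did B+Con-FMT and B-sa (0.12 ± 0.09; limma adjusted p = 0.493).

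The call of Cxcl12 against B-sa held in 8 of 9 other settings and was lost without B-sa mouse 2 or B+A10-FMT mouse 1, at limma adjusted p up to 0.0546. The others were less firm: that in B-sa against Con-sa held in 4 of 9 settings and was lost without any 1 of the 6 mice compared or without B+Con-FMT mouse 2 (limma adjusted p up to 0.113), and that against B+Con-FMT held in 3 of 9 and was lost without B+Con-FMT mouse 1 or 2, Con-sa mouse 1 or any B+A10-FMT mouse (limma adjusted p up to 0.136).

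The deposited tables split Cxcl12 into 3 RefSeq transcripts, which encode the alpha, beta and gamma forms and differ at the end of the protein. The alpha transcript made up 77.4% ± 0.5 of Cxcl12 RPKM in Con-sa and 77.6% ± 0.5 in B-sa mice, then 77.3% ± 1.0 in B+Con-FMT mice and 73.5% ± 1.5 in B+A10-FMT mice (SD, n = 3). The beta transcript took 24.2, 24.8 and 22.5% in the 3 B+A10-FMT mice, and between 19.8 and 21.7% in the 9 other mice. The share of beta was thus higher in each B+A10-FMT mouse than in any other mouse. The difference was 3.59 percentage points against Con-sa, 3.24 against B-sa and 2.93 against B+Con-FMT, each with a p of 0.1 in a two-sided exact permutation test, the smallest that 3 mice against 3 allow. In RPKM, beta had a mean of 74.2 ± 8.5 in B+A10-FMT against 47.2 ± 1.6 in B-sa, and alpha stood at 228.4 ± 21.2 against 177.5 ± 5.5. The gamma transcript was the rarest at 3.51 to 10.3 RPKM. How the authors' counting divided reads among overlapping transcripts is not given in the sources used here, so a share is an estimate of that counting.

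**Figure D3:**
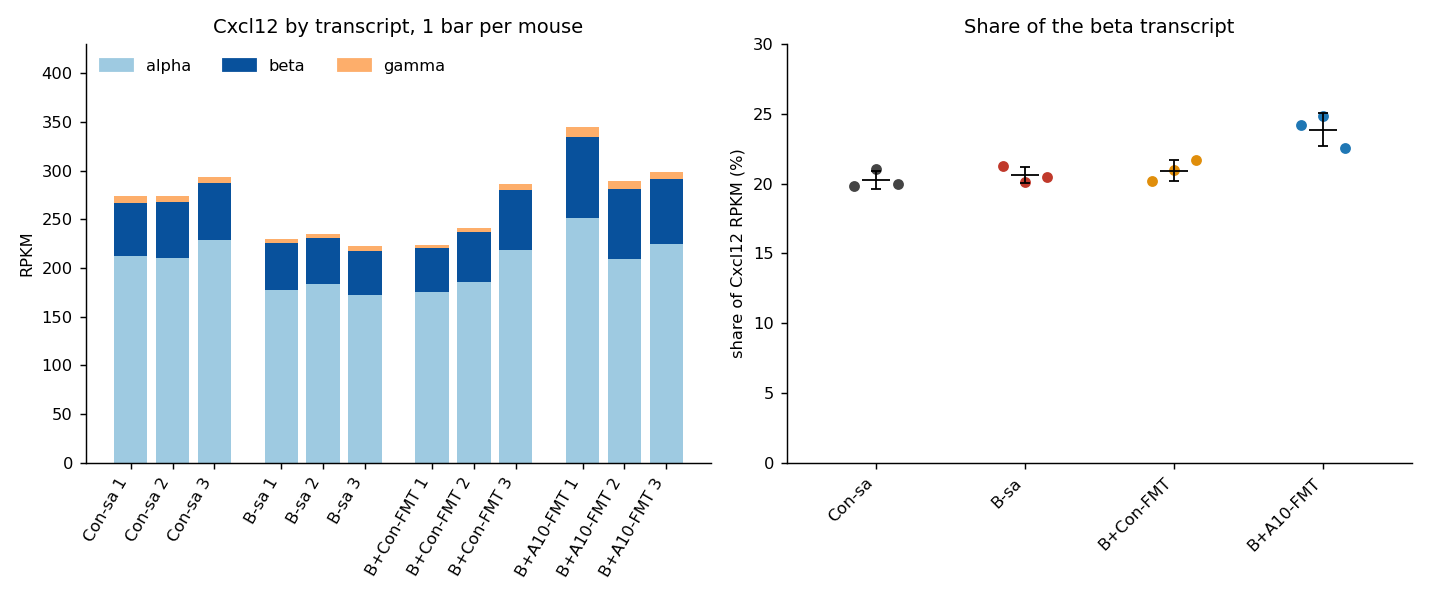
Left, Cxcl12 RPKM in each of the 12 mice (y axis from 0) stacked by alpha, beta and gamma transcript. Right, the beta transcript as a percentage of Cxcl12 RPKM by group, with 1 point per mouse, mean line and SD bar (n = 3), where the B+A10-FMT mice lay at 22.5 to 24.8% and all other mice at or below 21.7%.

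The sum of 10 endothelial genes was 132.9 to 139.1 RPKM in Con-sa and 111.4 to 120.3 in B-sa mice, then 106.0 to 121.3 in B+Con-FMT mice and 136.2 to 137.3 in B+A10-FMT mice. Of the 10, 3 were called lower in B-sa than among Con-sa mice (beside 9.78% of all genes), 3 higher in B+A10-FMT than among B-sa mice (beside 4.0%) and 6 higher in B+A10-FMT than among B+Con-FMT mice (beside 7.58%). The sum was thus higher in Con-sa and B+A10-FMT, the groups with the highest mean Cxcl12, while the sums of B-sa and B+Con-FMT overlapped. Set against this sum, a ratio chosen after the values were seen, Cxcl12 was 205 to 211% of it in Con-sa and 191 to 211% in B-sa, and 211 to 236% among B+Con-FMT mice and 210 to 253% among B+A10-FMT mice. The ranges of Con-sa and B-sa overlapped on this ratio, and so did those of the transplanted groups. Macrophage markers were also called higher in B+A10-FMT than among B+Con-FMT mice, 6 of 10 beside the same 7.58%, with sums of 807.3 to 1038 against 624.6 to 830.5 RPKM. In whole-spleen RNA, fewer cells of a type and less RNA per cell cannot be told apart, and the part of these cell types in the Cxcl12 result was not tested.

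Cxcl13 (Entrez gene 55985, chr5:95956939-95961068), the B cell attractant of follicles, had its lowest levels in Con-sa, at 154.7, 155.0 and 170.1 RPKM. The B-sa mice held 249.4, 186.6 and 196.6 RPKM, the B+Con-FMT mice 259.4, 195.3 and 222.4, and the B+A10-FMT mice 201.1, 160.5 and 214.5. All mice of B-sa and B+Con-FMT were above all Con-sa mice, while B+A10-FMT overlapped every other group. Cxcl13 was called higher in B+Con-FMT than among Con-sa mice by 0.49 ± 0.13 (ratio 1.411; limma adjusted p = 0.0476). In B-sa against Con-sa the difference of 0.39 ± 0.13 was not called (ratio 1.319, 95% interval 0.09 to 0.68; limma adjusted p = 0.0761). The call in B+Con-FMT held in 6 of 9 other settings. It was lost without any Con-sa mouse, B-sa mouse 3, B+Con-FMT mouse 1 or 3 or B+A10-FMT mouse 1, at limma adjusted p up to 0.137.

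Ccl21a (Entrez gene 18829, chr4:42772860-42773991) and Ccl19 (Entrez gene 24047, chr4:42754525-42756365), the T zone ligands of CCR7, are neighbours on chromosome 4 and were not called in any comparison. Ccl21a measured 588.0, 707.4 and 780.6 RPKM in Con-sa and 847.1, 585.3 and 449.3 in B-sa, and 827.4, 763.1 and 681.0 in B+Con-FMT against 598.4, 476.6 and 620.9 in B+A10-FMT. Every B+A10-FMT mouse was below every B+Con-FMT mouse, while all other pairs of groups overlapped. That difference was -0.43 ± 0.21 (ratio 0.747, 95% interval -0.91 to 0.06; limma adjusted p = 0.221). Ccl19 ranged from 75.5 to 178.1 RPKM, both its highest and its second lowest value were in B-sa mice, and its group means lay between 100.2 ± 22.1 in B+A10-FMT and 121.9 ± 49.3 in B-sa. B-sa mouse 1 had the highest Ccl21a, Ccl19 and Ngfr of all 12 mice, and B-sa mouse 3 the lowest Ccl21a and Ngfr. The 95% interval for Ccl19 in B-sa against Con-sa ran from -0.47 to 0.72, so with 3 mice a group a change within that range was not excluded. The smallest difference that could be called was not computed for these genes.

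Ccl21a has near-identical copies in the mouse genome, so reads may be shared among them. The tables hold 7 genes of the Ccl21 family, and Ccl21a took 91.1 to 97.0% of their summed RPKM. Of the 6 copies, 4 had identical values in every mouse, at most 0.85 RPKM, and Gm1987 was listed at 31.2 RPKM in 1 B-sa mouse and at 0 in the others. Ccl21b had group means of 33.2 ± 4.6, 24.9 ± 10.5, 35.2 ± 4.2 and 23.4 ± 3.3 RPKM in Con-sa, in B-sa and, with transplants, in B+Con-FMT and B+A10-FMT. With all copies summed, a choice made after seeing the data, the difference of B+A10-FMT from B+Con-FMT was -0.44 (limma adjusted p = 0.214), and no comparison was called. The split among copies is uncertain and does not alter the absence of a call.

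Among the receptors, Cxcr5 (Entrez gene 12145, chr9:44511787-44526444), which guides B cells to follicles, was lower in B-sa and near Con-sa in B+A10-FMT. It measured 75.6, 83.1 and 77.7 RPKM in Con-sa, 67.8, 59.0 and 63.1 in B-sa, 73.1, 72.2 and 70.0 in B+Con-FMT and 78.3, 74.2 and 74.3 in B+A10-FMT. The groups stood in the order Con-sa, B+A10-FMT, B+Con-FMT and B-sa, and of the neighbours only Con-sa and B+A10-FMT overlapped. B-sa was below Con-sa by a difference of -0.31 ± 0.06 (ratio 0.804; limma adjusted p = 0.00747), and this call held in all 9 other settings and with each of the 12 mice left out in turn. B+A10-FMT was above B-sa by 0.25 ± 0.06 (ratio 1.194; limma adjusted p = 0.0289). That call held in 6 of 9 settings and was lost without B-sa mouse 2 or 3 or any B+A10-FMT mouse, at limma adjusted p up to 0.108. B+Con-FMT was above B-sa by 0.18 ± 0.06, which was not called (ratio 1.134; limma adjusted p = 0.134) except without B-sa mouse 1 (limma adjusted p = 0.0461). B+A10-FMT and B+Con-FMT differed by 0.07 ± 0.06 (95% interval -0.05 to 0.20; limma adjusted p = 0.418).

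B cell markers moved with Cxcr5 after busulfan. The summed level of 12 B cell genes was 2335 to 2590 RPKM in Con-sa and 1770 to 2153 in B-sa mice, then 2042 to 2172 in B+Con-FMT mice and 2059 to 2174 in B+A10-FMT mice, and 8 of the 12 were called lower in B-sa than among Con-sa mice (beside 9.78% of all genes). The sums of B-sa overlapped those of both transplanted groups. As a percentage of the B cell sum, a ratio chosen after the values were seen, Cxcr5 was 3.14 to 3.24 in Con-sa and 3.15 to 3.34 in B-sa, which overlapped. It was 3.32 to 3.45% among B+Con-FMT mice and 3.42 to 3.80% among B+A10-FMT mice, and all B+A10-FMT mice were above all Con-sa and B-sa mice. The part of B cell number in the Cxcr5 result was not tested.

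**Figure D4:**
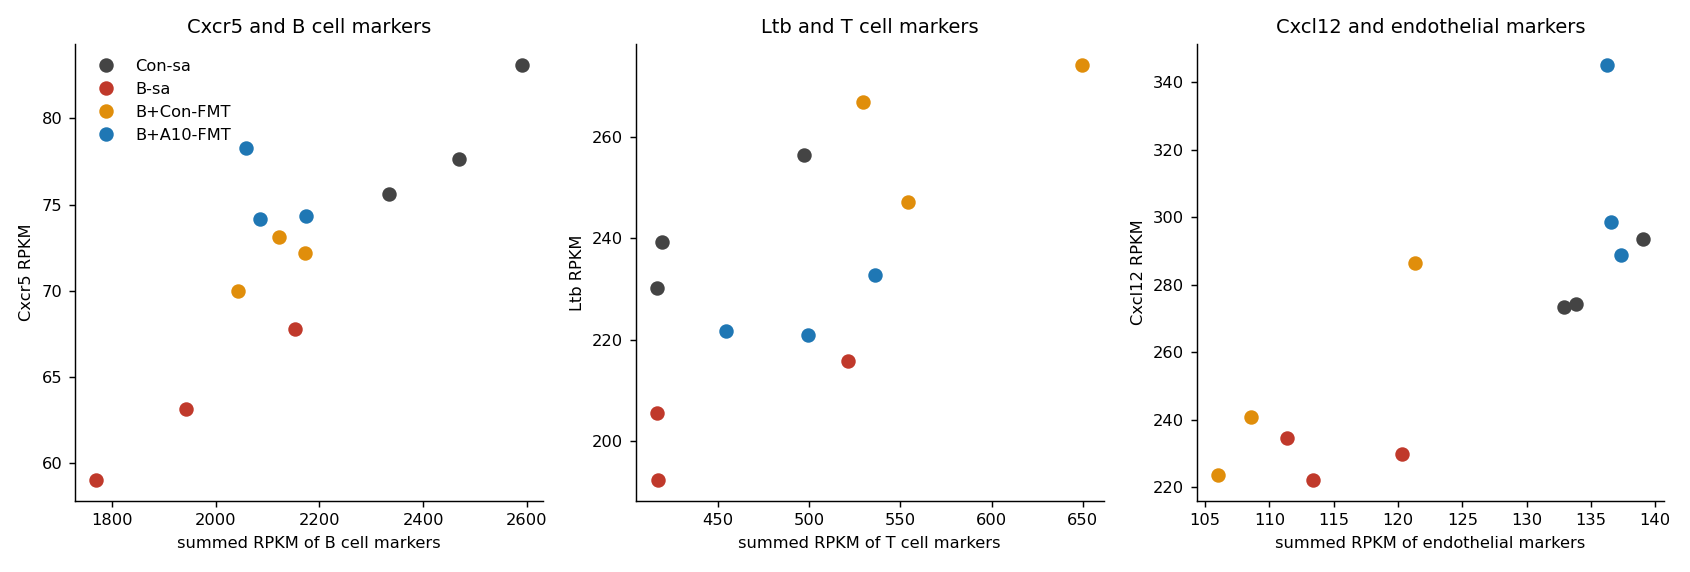
Cxcr5, Ltb and Cxcl12 RPKM (y axes, not from 0) against the summed RPKM of B cell, T cell and endothelial markers (x axes, not from 0), with 1 point per mouse coloured by group. B-sa mice had the lowest Cxcr5 with B cell sums of 1770 to 2153 RPKM, B+Con-FMT mice had T cell sums of 529.5 to 649.8 RPKM, and Con-sa and B+A10-FMT mice had the highest endothelial sums.

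Ccr7 (Entrez gene 12775, chr11:99144199-99155077), the T zone receptor, did not pass the test in any comparison. Its group means were 51.0 ± 4.3, 45.6 ± 6.4, 51.9 ± 5.6 and 49.8 ± 2.8 RPKM in Con-sa, in B-sa and, with transplants, in B+Con-FMT and B+A10-FMT, and all groups overlapped. The widest difference, 0.19 ± 0.10 in B+Con-FMT against B-sa, had a 95% interval of -0.03 to 0.40 (limma adjusted p = 0.347). The summed T cell markers were 416.7 to 497.0 RPKM in Con-sa and 416.9 to 521.4 in B-sa mice, then 529.5 to 649.8 in B+Con-FMT mice and 454.6 to 536.1 in B+A10-FMT mice. As a percentage of that sum, Ccr7 was 11.2 to 11.8 in Con-sa and 9.89 to 10.2 in B-sa mice, then 8.67 to 9.32 in B+Con-FMT mice and 9.80 to 10.3 in B+A10-FMT mice. Every mouse given busulfan was thus below every Con-sa mouse on this ratio, which was chosen after the values were seen.

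Cxcr4 (Entrez gene 12767, chr1:128588199-128592299), the receptor of CXCL12, was lowest after A10-FMT. It measured 78.0, 77.6 and 90.3 RPKM in Con-sa, 72.2, 78.1 and 81.6 in B-sa, 75.8, 79.7 and 68.7 in B+Con-FMT and 60.2, 61.5 and 61.8 in B+A10-FMT. The 3 B+A10-FMT mice stood close together and below every other mouse, and the other groups overlapped. The difference was -0.41 ± 0.07 (ratio 0.746; limma adjusted p = 0.0267) from Con-sa, -0.33 ± 0.07 (ratio 0.791; limma adjusted p = 0.0245) from B-sa and -0.28 ± 0.07 (ratio 0.818; limma adjusted p = 0.0293) from B+Con-FMT. Cxcr4 was thus called lower after A10-FMT than in each of the other groups, while its ligand gene Cxcl12 was called higher than in both other busulfan groups. No difference of Cxcr4 among Con-sa, B-sa and B+Con-FMT was called, with 95% intervals of -0.24 to 0.07 for B-sa against Con-sa and -0.29 to 0.02 for B+Con-FMT against Con-sa.

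The calls of Cxcr4 held in 6, 8 and 7 of 9 other settings against Con-sa, B-sa and B+Con-FMT. Each was lost without any 1 of the 3 B+A10-FMT mice, and also without Con-sa mouse 1 or 3, B-sa mouse 2 or 3, or B+Con-FMT mouse 1 or 2 in the comparison concerned, at limma adjusted p up to 0.122. The main transcript carried 83.9% ± 1.2 of Cxcr4 RPKM in Con-sa and 89.0% ± 2.0 in B+A10-FMT, and the next one stood at 11.9 ± 0.9 and 6.3 ± 1.2 RPKM, on shares that did not overlap (p = 0.1, two-sided exact permutation test, the smallest possible). The shares of B+A10-FMT overlapped those of B-sa (p = 0.2, exact permutation test) and of B+Con-FMT (p = 0.4, exact permutation test). Against the summed T and B cell markers Cxcr4 was 2.28 to 2.42% in B+A10-FMT and 2.58 to 3.57% in the other mice. Neutrophil markers, whose cells carry CXCR4, summed to 2069 to 2151 RPKM in Con-sa and 3663 to 5983 in B-sa mice, then 2381 to 3429 in B+Con-FMT mice and 2051 to 5091 in B+A10-FMT mice. As a percentage of this sum Cxcr4 was 3.61 to 4.31 in Con-sa and 1.31 to 2.23 in B-sa mice, then 2.15 to 3.18 in B+Con-FMT mice and 1.21 to 3.01 in B+A10-FMT mice. On this ratio B+A10-FMT overlapped both other busulfan groups, and B-sa had the lowest mean. These ratios were chosen after the values were seen, and the part of neutrophils in the Cxcr4 result was not tested.

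In the lymphotoxin axis, Ltb (Entrez gene 16994, chr17:35194507-35196305), the lymphocyte ligand subunit, was lower after busulfan and highest after Con-FMT. It measured 230.3, 239.3 and 256.3 RPKM in Con-sa, 215.8, 205.5 and 192.3 in B-sa, 274.2, 266.9 and 247.1 in B+Con-FMT and 220.8, 221.7 and 232.7 in B+A10-FMT. No B-sa mouse reached the lowest mouse of any other group, and B+A10-FMT lay between B-sa and B+Con-FMT without overlap with either. The difference was -0.24 ± 0.06 (ratio 0.845; limma adjusted p = 0.0223) in B-sa against Con-sa and 0.36 ± 0.06 (ratio 1.284; limma adjusted p = 0.0167) in B+Con-FMT against B-sa. In B+A10-FMT it was -0.22 ± 0.06 from B+Con-FMT (ratio 0.857; limma adjusted p = 0.0374), and 0.14 ± 0.06 from B-sa, which was not called (limma adjusted p = 0.177).

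The calls of Ltb in B-sa against Con-sa and in B+Con-FMT against B-sa each held in 8 of 9 other settings. Without Con-sa mouse 2 or 3 or B-sa mouse 2 or 3 the call against Con-sa was lost (limma adjusted p up to 0.0768), and without B-sa mouse 2 or 3 or B+Con-FMT mouse 1 or 2 that in B+Con-FMT was lost (limma adjusted p up to 0.0896). The call in B+A10-FMT against B+Con-FMT held in 5 of 9 settings and was lost without B+Con-FMT mouse 1 or 2 or any B+A10-FMT mouse, at limma adjusted p up to 0.131. As a percentage of the summed T and B cell markers, Ltb was 9.51 to 9.89 in B+Con-FMT, above the 7.95 to 8.64 of Con-sa, the 8.07 to 9.40 of B-sa and the 8.58 to 8.72 of B+A10-FMT. On this ratio, chosen after the values were seen, Con-sa and B-sa overlapped. Of the 13 T cell markers, 5 were called higher in B+Con-FMT than among Con-sa mice (beside 2.3% of all genes) and 1 higher in B+Con-FMT than among B-sa mice (beside 0.623%), and their part in the Ltb result was not tested.

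Ltbr (Entrez gene 17000, chr6:125306571-125313885), the stromal receptor, measured 10.8, 11.3 and 12.9 RPKM in Con-sa, 10.8, 11.3 and 10.2 in B-sa, 8.01, 9.64 and 10.6 in B+Con-FMT and 13.1, 12.5 and 11.5 in B+A10-FMT. All B+A10-FMT mice were above all mice of B-sa and B+Con-FMT and overlapped Con-sa. Ltbr was higher in B+A10-FMT than among B+Con-FMT mice by 0.36 ± 0.09 (ratio 1.312; limma adjusted p = 0.0302). Ligand and receptor gene thus differed in opposite directions between these groups, with Ltb lower and Ltbr higher in B+A10-FMT. This call of Ltbr held in 6 of 9 other settings and was lost without B+Con-FMT mouse 1 or 2 or B+A10-FMT mouse 1 or 2 (limma adjusted p up to 0.112). As a percentage of the endothelial sum Ltbr was 7.56 to 8.88 among B+Con-FMT mice and 8.40 to 9.59 among B+A10-FMT mice, which overlapped. On the same ratio Ltbr was 8.09 to 9.29 in Con-sa and 9.0 to 10.1 in B-sa, which had the highest mean and overlapped B+A10-FMT. The part of endothelial cells in the Ltbr result was not tested.

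The pathway around Ltbr was followed in 15 other genes of lymphotoxin and noncanonical NF-kB signalling, all tested. In B-sa against Con-sa 2 of the 15 were lower and none higher, near the 9.78% of all genes called lower, with Map3k14 at -0.36 ± 0.06 (limma adjusted p = 0.0055) and Traf3 at -0.27 ± 0.07 (limma adjusted p = 0.0205). Map3k14 encodes NIK, the kinase that starts the noncanonical route, and Traf3 encodes the adaptor that keeps NIK low. Map3k14 was higher in B+A10-FMT than among B-sa mice by 0.26 ± 0.06 (limma adjusted p = 0.0305), the only 1 of the 15 called there, near the 5.27% of all genes. Between the transplanted groups, Tnf was lower with A10-FMT by a difference of -0.47 ± 0.13 (limma adjusted p = 0.0367) and Birc3, an inhibitor of apoptosis and an NF-kB target, was higher by 0.27 ± 0.07 (limma adjusted p = 0.0364). Lta, the partner of Ltb in membrane lymphotoxin, was named after its values were seen: it was higher in B+Con-FMT than among Con-sa mice, at 16.9 against 13.2 RPKM (0.34 ± 0.08; limma adjusted p = 0.0227). Nfkb2 and Relb, which encode the NF-kB pair of this route, were not called in any comparison. The differences of Nfkb2 were -0.22 ± 0.07 in B-sa against Con-sa (limma adjusted p = 0.0618) and 0.32 ± 0.07 in B+Con-FMT against B-sa (limma adjusted p = 0.0661). The median difference of the 15 was -0.08 in B-sa against Con-sa beside -0.04 for all genes, 0.11 in B+A10-FMT against B-sa beside 0.05 and -0.06 in B+A10-FMT against B+Con-FMT beside 0.05.

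Promoters from RefSeq (GRCm38.p6, the assembly also named mm10) were found for 8 of the 10 genes, as 250 bases before to 50 bases after the start of each gene. They are shown for the 4 called genes that held a match to an NF-kB motif, because lymphotoxin receptor signals reach chemokine genes through NF-kB, and for Ccl19, which shares a motif with Cxcl13. The motifs searched on both strands were the loose core GGGNNNNNCC, the classical form GGGANTTTCC, which also fits the core, and GGGANNTTTG, a form that covers the site known from the noncanonical target Cxcl13. Capitals mark every match, and each sequence runs 5′ to 3′ on the strand of its gene. The windows are chr5:95956689-95956988 (plus strand) for Cxcl13, chr4:42756316-42756615 (minus strand) for Ccl19, chr17:35194257-35194556 (plus strand) for Ltb, chr6:117168285-117168584 (plus strand) for Cxcl12 and chr6:125313836-125314135 (minus strand) for Ltbr.
Cxcl13: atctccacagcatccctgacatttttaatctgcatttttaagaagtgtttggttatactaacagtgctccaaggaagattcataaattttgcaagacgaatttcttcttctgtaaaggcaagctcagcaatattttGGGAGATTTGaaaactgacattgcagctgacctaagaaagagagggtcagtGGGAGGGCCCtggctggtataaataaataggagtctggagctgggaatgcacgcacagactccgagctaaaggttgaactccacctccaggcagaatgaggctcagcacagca
Ccl19: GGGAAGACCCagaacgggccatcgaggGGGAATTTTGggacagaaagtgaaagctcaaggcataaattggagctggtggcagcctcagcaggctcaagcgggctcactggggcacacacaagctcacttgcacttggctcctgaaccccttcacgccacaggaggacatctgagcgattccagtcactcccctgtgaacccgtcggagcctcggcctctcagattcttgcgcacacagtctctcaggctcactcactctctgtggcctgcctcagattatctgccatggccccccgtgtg
Ltb: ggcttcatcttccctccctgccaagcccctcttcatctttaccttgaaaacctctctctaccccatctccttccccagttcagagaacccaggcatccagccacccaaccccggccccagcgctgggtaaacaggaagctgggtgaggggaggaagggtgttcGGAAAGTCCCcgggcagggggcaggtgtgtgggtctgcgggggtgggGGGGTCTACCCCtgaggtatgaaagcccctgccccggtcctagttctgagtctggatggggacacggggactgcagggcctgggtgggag
Cxcl12: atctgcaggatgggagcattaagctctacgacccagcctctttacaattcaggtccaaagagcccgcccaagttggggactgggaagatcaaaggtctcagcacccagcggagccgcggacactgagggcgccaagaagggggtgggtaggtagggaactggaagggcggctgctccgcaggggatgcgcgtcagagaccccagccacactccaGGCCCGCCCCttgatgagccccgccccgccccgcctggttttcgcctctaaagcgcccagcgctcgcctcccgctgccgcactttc
Ltbr: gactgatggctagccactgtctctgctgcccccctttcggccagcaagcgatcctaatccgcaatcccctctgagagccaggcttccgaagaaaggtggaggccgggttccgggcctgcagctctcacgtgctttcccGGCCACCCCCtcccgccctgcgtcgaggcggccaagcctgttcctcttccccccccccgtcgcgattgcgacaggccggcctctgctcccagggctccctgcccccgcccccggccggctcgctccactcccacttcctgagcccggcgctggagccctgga

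GGGANNTTTG was found in the promoters of Cxcl13, with its leftmost base at position -114 from the start of the gene, and of Ccl19, at -223, and in none of the other 6. Because this form was written to cover the known Cxcl13 site, its match in Cxcl13 was fixed in advance. It is present in 1.34% of 32851 promoters of the same length, whereas the loose core is present in 50.8%. The classical form was found in the Ltb promoter alone among the 8, on the reverse strand at -87, and is present in 0.411% of all promoters. Cxcl12 and Ltbr held 1 core match each, at -36 and -112, and Ccl21a and Cxcr4 held none of the motifs. A match is a run of letters and was not tested for binding. Beside these letters stand the levels above: Ltb was called in 3 comparisons, Cxcl13 in 1 and Ccl19 in none.

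Ngfr (Entrez gene 18053, chr11:95568818-95587698) was the lowest of the 10, at 1.45 to 2.95 RPKM. Its group means were 2.15 ± 0.26, 2.12 ± 0.76, 2.22 ± 0.13 and 1.95 ± 0.28 RPKM in Con-sa, in B-sa and, with transplants, in B+Con-FMT and B+A10-FMT, and no comparison was called (limma adjusted p from 0.586 to 0.905). The lowest and the highest of the 12 values were both in B-sa. Markers of Schwann and glial cells, which also carry this receptor, were scarce, with Sox10 at 0 in 3 mice and S100b at 0 in 2.

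Other genes of follicular dendritic cells and marginal reticular cells differed in both directions. Of 17 in the list, 15 were tested. Coch, the most abundant of those called, was 351.1 ± 25.9 RPKM in Con-sa and 276.4 ± 13.3 in B-sa mice, then 290.3 ± 19.6 in B+Con-FMT mice and 417.5 ± 23.1 in B+A10-FMT mice, and each B+A10-FMT mouse was above every other mouse. It was lower in B-sa than among Con-sa mice (-0.34 ± 0.07; limma adjusted p = 0.00947) and higher in B+A10-FMT than among B-sa mice (0.59 ± 0.07; limma adjusted p = 0.00131) and B+Con-FMT (0.52 ± 0.07; limma adjusted p = 0.00153). Enpp2, which encodes autotaxin, went the other way, with 0.29 ± 0.07 in B-sa against Con-sa (limma adjusted p = 0.0213) and -0.36 ± 0.07 in B+A10-FMT against B-sa (limma adjusted p = 0.0179). Vcam1, an adhesion molecule of stroma and of red pulp macrophages that also stands in the macrophage list, was higher in B+A10-FMT than among B+Con-FMT mice by 0.37 ± 0.09 (limma adjusted p = 0.028). In B-sa against Con-sa the list had 1 gene called higher and 1 lower (beside 14.5% of all genes called), as it had in B+A10-FMT against B-sa (beside 5.27%). Against B+Con-FMT, 2 genes of the list were called higher with A10-FMT and 1 was called lower (beside 10.4%). Its medians of 0.02, -0.03 and 0.06 lay beside -0.04, 0.05 and 0.05 for all genes.

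Genes of fibroblastic reticular cells and splenic stroma, 19 tested of 19, were also mixed. Tlx1, a transcription factor that the spleen needs to form, was lower in B-sa than among Con-sa mice (-0.25 ± 0.07; limma adjusted p = 0.034) and higher in B+A10-FMT than among B-sa mice (0.61 ± 0.07; limma adjusted p = 0.0013) and B+Con-FMT (0.46 ± 0.07; limma adjusted p = 0.00325). Pdgfra, a receptor of stromal cells, was lower in B-sa than among Con-sa mice (-0.28 ± 0.08; limma adjusted p = 0.0364). Pdgfrb, the receptor of perivascular cells, and Fn1, fibronectin, were higher in B+A10-FMT than among B+Con-FMT mice, by 0.56 ± 0.12 (limma adjusted p = 0.0174) and 0.38 ± 0.10 (limma adjusted p = 0.0403). The matrix genes Dcn, -0.73 ± 0.15 (limma adjusted p = 0.0222), and Col6a1, -0.48 ± 0.12 (limma adjusted p = 0.046), were lower in B+A10-FMT than among B-sa mice. Adipocyte markers, whose tissue also holds matrix genes, summed to 69.1 to 80.8 RPKM in B+A10-FMT and 124.4 to 305.2 in B-sa. None of the 6 tested was called between these groups. Mesothelial markers summed to 17.0 to 21.8 RPKM in B+A10-FMT and 21.7 to 34.4 in B-sa, with 3 of 6 called lower (beside 1.27% of all genes). The part of either tissue in the Dcn and Col6a1 results was not tested. In B-sa against Con-sa the stromal list had 2 of 19 genes called lower, near the 9.78% of all genes, and none higher. With A10-FMT, 2 genes were called higher and 2 lower against B-sa (beside 5.27% of all genes called), and 3 higher and none lower against B+Con-FMT (beside 7.58% of all genes called higher). The medians were -0.02, 0.12 and -0.11, beside -0.04, 0.05 and 0.05 for all genes.

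The remaining guidance genes, other chemokines and the sphingosine and oxysterol receptors, had 20 of 21 genes tested. Of these 20, 7 were called lower and none higher in B-sa against Con-sa, where 9.78% of all genes were called lower, with a median of -0.20 beside -0.04 for all genes. Without B-sa mouse 2 the list had 4 genes called. Ackr3, the scavenger receptor that removes CXCL12, had the largest of these differences, at -0.58 ± 0.10 (limma adjusted p = 0.00632). Its group means were 18.8 ± 2.4, 12.2 ± 1.7, 10.5 ± 0.6 and 18.5 ± 1.4 RPKM in Con-sa, in B-sa and, with transplants, in B+Con-FMT and B+A10-FMT. Ackr3 was higher in B+A10-FMT than among B-sa mice by 0.57 ± 0.10 (limma adjusted p = 0.0121) and than among B+Con-FMT mice by 0.75 ± 0.10 (limma adjusted p = 0.002), the same directions as Cxcl12. S1pr1 and S1pr4, sphingosine receptors of lymphocytes, were lower in B-sa than among Con-sa mice by differences of -0.49 ± 0.08 (limma adjusted p = 0.00512) and -0.52 ± 0.08 (limma adjusted p = 0.00487). S1pr1, through which lymphocytes leave the organ, was higher in B+A10-FMT than among B-sa mice, at 96.1 ± 1.3 against 66.2 ± 9.4 RPKM (0.54 ± 0.08; limma adjusted p = 0.00571). Between the transplanted groups (B+A10-FMT against B+Con-FMT) S1pr2, a receptor that confines germinal centre B cells, was at -0.68 ± 0.15 (limma adjusted p = 0.0197) and Ch25h, an enzyme of the oxysterol that EBI2 senses, at -0.36 ± 0.10 (limma adjusted p = 0.0426). S1pr1 and Ackr3 were the 2 genes of the list called in B+A10-FMT against B-sa (beside 5.27% of all genes), and 2 were higher and 2 lower against B+Con-FMT (beside 10.4%).

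**Figure D5:**
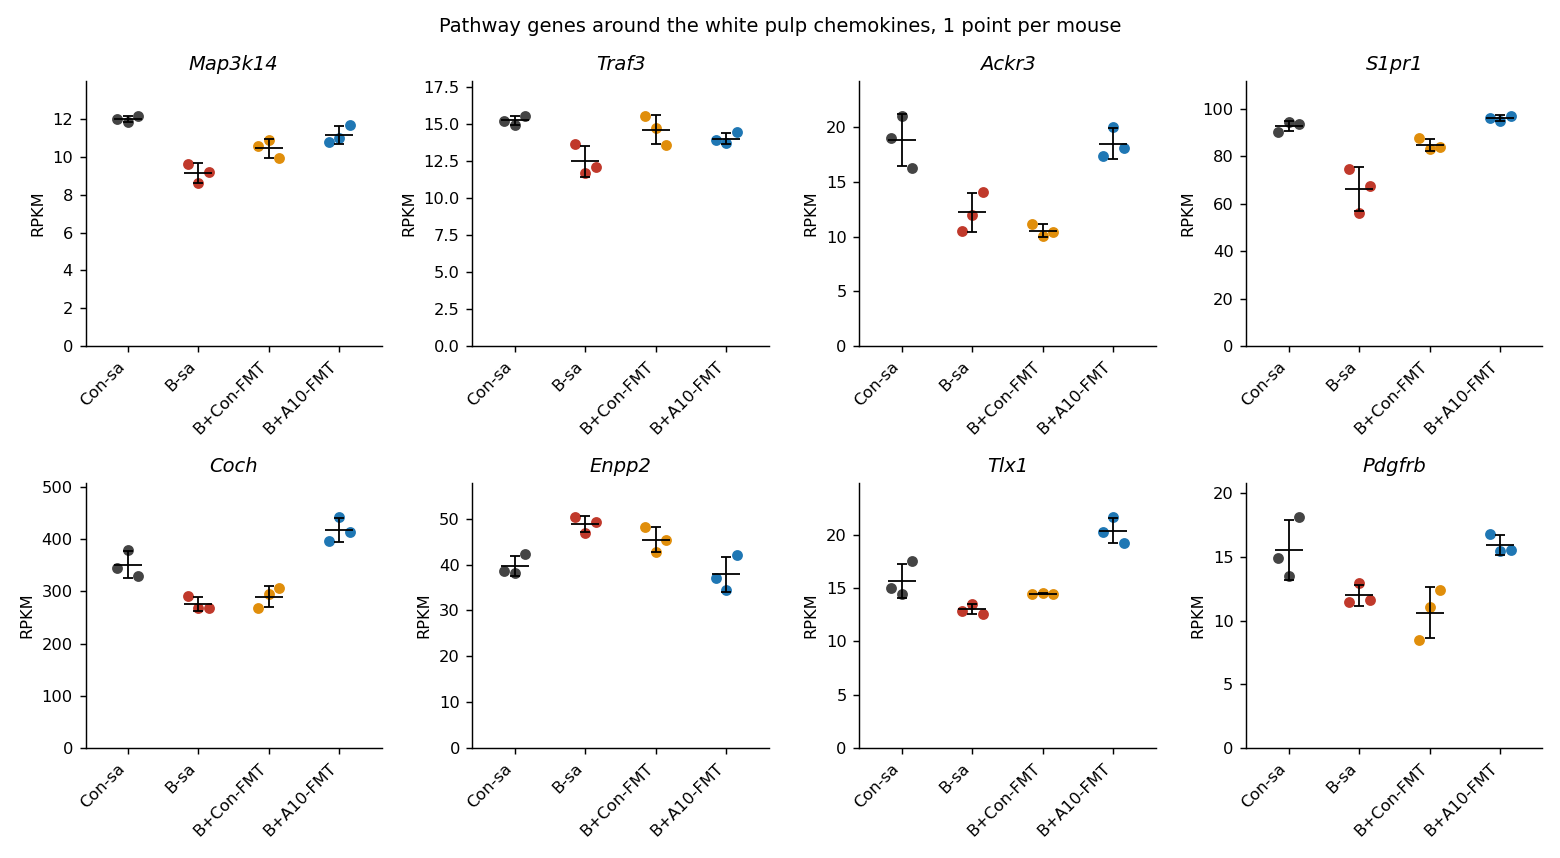
RPKM of 8 pathway genes (y axis, from 0, a separate scale for each gene) by group, with 1 point per mouse, mean line and SD bar (n = 3). Ackr3 and Pdgfrb were lower in all B-sa and B+Con-FMT mice than in any Con-sa or B+A10-FMT mouse, and Coch and Tlx1 were highest in the 3 B+A10-FMT mice.

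Across the 12 mice, the genes whose log2(RPKM + 1) ran closest to each of the 10 were listed by Pearson r, as a description over points that share groups and libraries. For Cxcl12 they were Nlrp3 (0.939), Tmem35a (0.936) and Epas1 (0.925), and for Ltbr Pdgfrb (0.941), Nkiras2 (0.932) and Angptl2 (0.926). For Cxcl13 they were Ostc (0.933), Foxp3 (0.913) and Rtraf (0.907), for Ccl21a Bcl3 (0.911) and Ccl21b (0.898), and for Ccl19 Tox (0.936), Nrn1 (0.921) and Mrpl58 (0.912). Among the receptors, Ccr7 ran closest to Cd4 (0.954), Trim26 (0.940) and Itgb7 (0.937), Cxcr5 to Fam120b (0.962), Dnmbp (0.951) and Filip1l (0.946), and Cxcr4 to Acy1 (0.878), Cdkn2aip (0.867) and Ccdc137 (0.854). For Ltb they were Dhx30 (0.938), Rgs14 (0.936) and Ankrd13d (0.933), and for Ngfr H2-K1 (0.956), Chst2 (0.895) and Sdcbp2 (0.891). Within the 10, the highest r joined Ccl21a with Ccl19 (0.849), Ccl19 with Ngfr (0.846), Ccl21a with Ngfr (0.812) and Ccl21a with Ccr7 (0.789). The follicular chemokine Cxcl13 had an r of 0.639 with Ccl19, 0.444 with Ccl21a and 0.403 with Ngfr. B-sa mouse 1 held the highest Ccl21a, Ccl19 and Ngfr, and r without this mouse was not taken. The lowest r joined Cxcl13 with Ltbr (-0.545) and Cxcl12 with Cxcr4 (-0.541).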

How the data were processed

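Spleen RNA of 12 mice was measured, and groups came from the agent named in the labels. The authors deposited 1 expression value for each of 60654 RefSeq transcripts per mouse. The deposited columns name no unit, and the values were taken as RPKM after the study's methods. The labels name a BGISEQ library, HISAT, Bowtie2 and mm10, whereas the study's methods name SOAPaligner 2.20. Which of these made the values, and the annotation release, are not given in the sources used here. RPKM were summed to 18221 genes by Entrez identifier, and 18101 of these matched a symbol. The 12671 genes that reached an RPKM of 1 in 3 or more mice were tested with limma 3.58.1 (R 4.3.3, trend and robust) on log2(RPKM + 1), a scale that understates changes of low genes, with group as the only term. Exact permutation tests used SciPy 1.17.1. The tables hold no counts, so no counting error is given, and precision rests on the spread between 3 mice, which may be partly technical. The 10 members and the gene lists were chosen with earlier results of these data known. Named genes were the members, up to 3 called genes with the largest difference per pathway list in each of 3 comparisons (B-sa against Con-sa, B+A10-FMT against B-sa and B+A10-FMT against B+Con-FMT), and the 3 most similar genes per member, of which 1 for Ccl21a is not reported here. The marker lists not shown elsewhere summed to 78.3 to 103.7 RPKM for dendritic cells, 108115 to 164769 for erythroid cells, 94.4 to 181.2 for smooth muscle and 28.3 to 32.9 for Schwann and glial cells over the 12 mice. Other settings were another pseudocount (0.1), filter, scaling, fit and transcript choice, and each mouse left out. The analysis was tested on simulated data.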

Additional observations from a re-analysis of the deposited data

How the results depend on the processing

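Called fold changes of the 10 genes kept their direction in every setting tried. Values that changed sign were small and uncalled: with equal totals outside globin, Ccl19 in B+Con-FMT against B-sa was -0.033, Ccr7 in B+A10-FMT against B+Con-FMT was 0.002 and Ccr7 in B+Con-FMT against Con-sa was -0.024.

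The number of genes called moved by more than 1.5 times as follows, and the cause was not tested. In B+Con-FMT against B-sa it was 0 in a fit of the 2 groups alone. For B+A10-FMT against B-sa it was 0 with the transcript of highest mean in place of the gene sum. For B+A10-FMT against B+Con-FMT it was 1 without the filter on low genes, 2 with a replicate block, 2 in a fit of the 2 groups alone, 0 with the transcript of highest mean and 2 without trend and robust options. For B+A10-FMT against Con-sa it was 0 with a replicate block, with the transcript of highest mean and without trend and robust options. In B+Con-FMT against Con-sa it was 0 without the filter, with the transcript of highest mean and without trend and robust options, and 2 with equal totals outside globin.

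With each mouse left out in turn, the number called ranged from 1 to 3 in B-sa against Con-sa, 0 to 2 in B+Con-FMT against B-sa, 0 to 3 in B+A10-FMT against B-sa, 0 to 4 in B+A10-FMT against B+Con-FMT, 0 to 1 in B+A10-FMT and B+Con-FMT against Con-sa, and 4 to 5 for any difference between the groups. Uncalled differences that changed sign ranged, in B-sa against Con-sa, from -0.422 to 0.035 for Ccl21a, -0.186 to 0.337 for Ccl19 and -0.223 to 0.122 for Ngfr. In B+Con-FMT against B-sa they ranged from -0.196 to 0.327 for Ccl19, -0.005 to 0.226 for Cxcl13, -0.097 to 0.01 for Cxcr4 and -0.087 to 0.257 for Ngfr. In B+A10-FMT against B-sa they ranged from -0.326 to 0.131 for Ccl21a, -0.447 to 0.076 for Ccl19 and -0.216 to 0.129 for Ngfr. Ccr7 ranged from -0.107 to 0.03 in B+A10-FMT against B+Con-FMT, -0.078 to 0.035 in B+A10-FMT against Con-sa and -0.061 to 0.09 in B+Con-FMT against Con-sa. Ccl19 ranged from -0.24 to 0.079 in B+A10-FMT against Con-sa, and Ngfr from -0.024 to 0.095 in B+Con-FMT against Con-sa.

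The counts called in the 4 pathway lists also changed. With 1 mouse left out, 89 counts moved by more than 1.5 times or to or from 0, and 199 moved by less or not at all. Under the other settings these numbers were 50 and 166. With 1 mouse left out they ranged, for B-sa against Con-sa, from 1 to 4 for lymphotoxin signalling, 1 to 3 for follicular dendritic cells, 0 to 4 for fibroblastic reticular cells and 4 to 10 for the other guidance genes.

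Replicate numbers did not pair the mice. Same-numbered mice of 2 groups correlated at a mean r of -0.172 to 0.178 over genes, and 1 of 12 mice matched best with its own number. With the replicate block, the calls of Cxcl12 in B-sa against Con-sa (adjusted p = 0.0573), of Cxcl12 (0.0571) and Ltb (0.0659) in B+A10-FMT against B+Con-FMT and of Cxcr4 in B+A10-FMT against Con-sa (0.0502) were lost, and Cxcl13 in B-sa against Con-sa was called (0.0312). The block changed no other call of the 10 genes in the 6 comparisons, and the test for any difference between the groups called 5 of the 10 with it.

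With median-of-ratios scaling, 1 gene (Cxcl13) was higher and 2 lower in B-sa against Con-sa, and 55.6% of all called genes were higher, against 32.6% with RPKM as deposited. The share of higher calls was 44.7% against 75.9% in B+A10-FMT against B-sa, 44.6% against 73.2% in B+A10-FMT against B+Con-FMT and 52.3% against 26.0% in B+Con-FMT against Con-sa. With equal totals outside globin it was 37.2% against 73.8% in B+Con-FMT against B-sa, 89.8% in B+A10-FMT against B+Con-FMT and 10.8% in B+Con-FMT against Con-sa. With 3 mice a group the intervals given for Ccl21a and Ccl19 were wide, and differences of these genes within them were not excluded.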
